A study of Ctenopharyngodon idella with 2 samples.

Results

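The 881 genes described here are those whose IDs place start and end at least 50 kb apart on their assembly sequence, out of 27929 gene IDs in all, of which 27852 carry positions. They were chosen by span alone, computed as end minus start plus 1, and no expression value entered the choice. The samples are spleens of the grass carp, Ctenopharyngodon idella, a plant-eating fish raised in freshwater ponds, in 2 RNA sequencing libraries, 1 from fish under high temperature treatment and 1 from fish under normal temperature treatment. Temperatures, exposure time, the age and strain of the fish and the number of fish behind a library are details not given in the sources used here. Interest in immune responses under heat is stated in the design text. With 1 library per treatment no difference below has a replicate check, no p-value is given, and every interval printed beside a value covers counting error only.

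A vertebrate gene that spans many kilobases consists mostly of introns, the stretches that are transcribed and then spliced out of the messenger RNA. The polymerase needs longer to travel through such a gene, and more of the transcript is removed, than in a compact gene with the same coding content. In well studied vertebrates, genes for cell adhesion molecules, ion channels, receptors and large extracellular matrix proteins are common among those with very long introns. The spleen filters blood and is a main site of immune defence and blood cell turnover in fish. The files give no gene names for the IDs, and 0 of them could be found in the species' RefSeq gene table, so the 881 genes are described by position, size and expression only.

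The spans ran from 50.07 to 372.8 kb, with a median of 68.4 kb and quartiles at 57.5 and 90.8 kb. Of the 881 genes, 462 spanned 50 to 70 kb, 258 spanned 70 to 100 kb and 161 spanned 100 kb or more. The length over which reads were counted, recovered from the ratio of the counts to the FPKM values (counts divided by gene length and library total), was known to the base for 633 of them. Among these it ran from 402 to 29307 bases, and the 10th and 90th percentiles were 1336 and 6730 bases. Some genes with longer counted lengths, known only to within 5%, are not in this range. Measured genes are those with 20 or more counts when both libraries are summed. Where known to the base, their median length was 3220.5 bases in 590 genes spanning 50 kb or more. It was 1167 bases in 18237 genes of shorter span. With lengths known to within 5%, the counted length took a median of 4.49% of the span in the long-span genes, from 0.653% to 64.1%. In genes of shorter span the median was 20.8% and the highest value 1239%. The counted length of some shorter-span gene IDs thus exceeds the span given by their ID, so spans by ID do not bound every gene as counted. The remainder of each long span was not counted towards the length, and exon structures were not used here.

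The long-span genes were spread over 192 of 2833 assembly sequences, with at most 26 on any of them. By the positions in the IDs, no long-span gene overlapped another gene ID, and no gene ID lay inside another. Genes nested in the introns of others were thus not seen by ID, and IDs without a position could not be checked. The mean gap to the neighbouring genes had a median of 25.1 kb around genes spanning 50 kb or more, against 9.71 kb around genes of shorter span. The threshold of 50 kb cuts a continuous range. Just inside it, the gene on CI01000013 from 2321895 to 2371964, spanning 50.07 kb, had 370 counts at high and 254 at normal temperature. The next, on CI01000012 from 10119912 to 10169990, had 345 and 126, and the gene on CI01000050 from 5654964 to 5705049 had 88 and 220. Just outside it, the gene on CI01000320 from 531076 to 581054, spanning 49.98 kb, had 101 counts at high and 65 at normal temperature. The genes on CI01000149 from 472532 to 522475 and on CI01000026 from 1516754 to 1566669 had 318 and 145, and 97 and 117, in the same order.

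The libraries held 20936717 gene counts at high and 16658918 at normal temperature. All ratios use edgeR's TMM factors, which adjust the library totals for composition, and all are high over normal temperature. Scaling by library totals places all log2 ratios 0.16 higher. Both are given for the medians of the long-span and shorter-span groups and for the main calls beyond 2-fold. Most other ratios, intervals, shares and calls are given with TMM factors only, and they too depend on the scaling.

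Most long-span genes had reads in the spleen. At least 1 count was found for 843 of the 881 genes (95.7%) at high temperature and for 781 (88.6%) at normal temperature. For genes of shorter span these shares were 94.0% and 87.7%. Both libraries had a count for 761 long-span genes. The high temperature library alone had a count for 82 (9.31%, against 10.01% of all gene IDs). The normal temperature library alone had a count for 20 (2.27%, against 3.77% of all), and neither had one for 18 (2.04%, against 2.245% of all). The 82 genes found only at high temperature had a median of 2 and at most 54 counts, and the 20 found only at normal temperature had at most 2. Where no count was found, up to 3 remain possible, which is 0.143 CPM (counts scaled by the library total only) at high and 0.18 CPM at normal temperature. Sampled down to the normal temperature total, the high temperature library would be expected to keep 831 of its 843 long-span genes, a loss of 12 genes, where the libraries differed by 62. Genes of shorter span showed a like pattern. Of these, 25338 were found at high temperature, 24863 were expected at the normal temperature total, and 23667 were found at normal temperature. The 18 genes with no count spanned 50.8 to 203 kb, and 5 of them spanned 100 kb or more.

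The gap between the libraries differed between span classes. Among the 161 genes of 100 kb or more, 96.9% had a count at high temperature (95.3% at the normal temperature total), against 83.9% at normal temperature. Among the 462 genes of 50 to 70 kb the shares were 95.02% (93.7% at the normal temperature total) and 89.2%, and among the 258 genes of 70 to 100 kb they were 96.1% (94.8% at the normal temperature total) and 90.7%. Genes under 1 kb also had a wide gap, with 89.3% (86.3% at the normal temperature total) at high and 79.2% at normal temperature. Genes with no count in either library have no recoverable length, so a comparison at like length is limited to genes with at least 1 count. Averaged over 5 classes of length in the mix of the 863 long-span genes, 97.7% of these had a count at high temperature, against 98.1% of 26366 shorter-span genes. At normal temperature 90.5% of the long-span genes and 92.9% of the shorter-span genes of like length had a count.

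**Figure D1:**
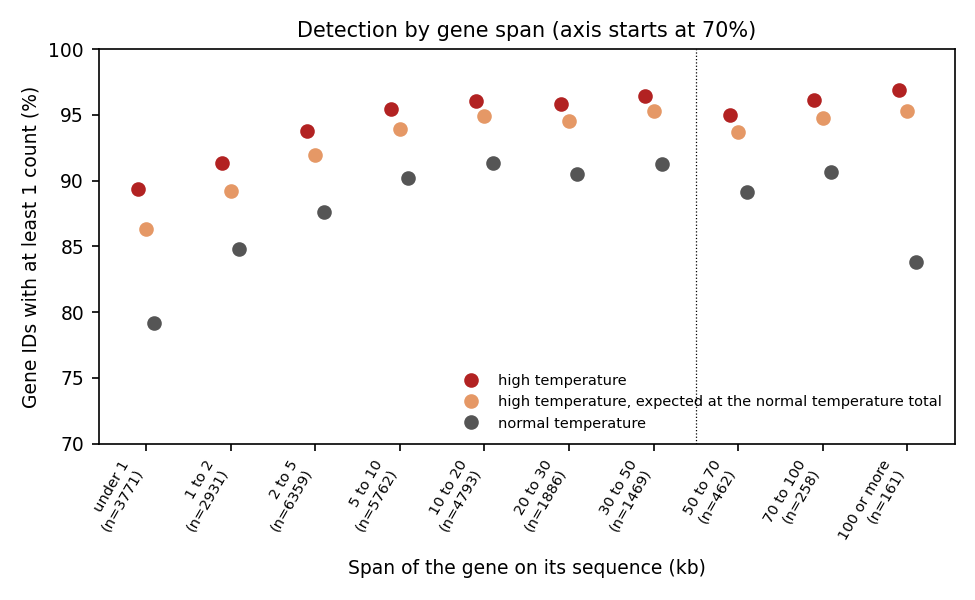
Share of gene IDs with at least 1 count (vertical axis, percent, starting at 70) by span class (horizontal axis, kb, with the number of IDs); the dotted line marks 50 kb. Genes of 100 kb or more reached 96.9% at high temperature, 95.3% when computed for the normal temperature total, and 83.9% at normal temperature.

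Long-span genes were less abundant per length than compact ones. Among measured genes, the median FPKM was 3.41 at high and 2.52 at normal temperature in the 641 genes spanning 50 kb or more, against 8.41 at high and 7.88 at normal temperature in the 18331 genes of shorter span. An FPKM above 10 was reached by 21.8% of the long-span genes and 45.0% of the shorter-span genes at high temperature, and by 17.0% and 43.6% at normal temperature. In CPM, which does not divide by length, the medians lay closer together, at 9.30 for long-span and 10.1 for shorter-span genes, averaged over both libraries after scaling. All 881 together made up 3.15% of the gene IDs. They took 1.97% of all counts at high temperature (411951 counts, exact 95% interval 1.96 to 1.97%) and 1.51% at normal temperature (251193 counts, 1.502 to 1.514%). The share at high temperature was thus 1.30 times that at normal temperature, or 1.16 times with TMM scaling.

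The counts were concentrated in part of the long-span genes. The 10 most abundant long-span genes took 24.7% of the counts of all 881 at high and 21.5% at normal temperature, the 50 most abundant took 49.6% and 50.4%, and the 100 most abundant took 66.5% and 65.4%. None was among the 100 most abundant gene IDs of the table, and 29 were among the 1000 most abundant. The most abundant per length lay on CI01000006 from 431032 to 484050, a gene of 2313 counted bases in a span of 53.0 kb. It had 30159 counts (623 FPKM) at high and 15109 counts (392 FPKM) at normal temperature, a scaled ratio of 1.42 (95% counting interval 1.39 to 1.45). It held 7.32% of the long-span counts at high and 6.02% at normal temperature and ranked 128th in the table by counts.

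The others among the 5 most abundant per length did not share a direction. A gene of 1020 bases on CI01000359, described below, had 38.5 FPKM at high and 228 FPKM at normal temperature. The gene on CI01000016 from 1509959 to 1560806 had 6318 counts (113 FPKM) at high and 5557 counts (125 FPKM) at normal temperature, with a scaled ratio of 0.808 (0.779 to 0.838). The gene on CI01000304 from 167148 to 268194, 1569 bases in a span of 101 kb, had 2943 counts (89.6 FPKM) at high and 3095 counts (118 FPKM) at normal temperature, a ratio of 0.676 (0.642 to 0.711). Only the gene on CI01000222 from 101592 to 162405 joined the most abundant one in lying above 1, with 13136 counts (106 FPKM) at high and 5747 counts (58.2 FPKM) at normal temperature and a ratio of 1.62 (1.57 to 1.68).

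The 5 widest genes were all sparse or moderate. The widest, on CI01000324 from 889804 to 1262624, had 1 count in each library, and the next, of 259 kb on CI01000095 from 1200809 to 1460128, had 2 counts at high and 0 at normal temperature. The gene of 239 kb on CI01000112 from 379383 to 617969 was well covered, with 352 counts (4.32 FPKM) at high and 239 counts (3.69 FPKM) at normal temperature. Its ratio of 1.05 (0.886 to 1.24) did not differ from 1 beyond counting error. The gene of 236 kb on CI01000000 from 14200000 to 14436182 had 42 counts at high and 12 at normal temperature, a ratio of 2.49 (1.28 to 5.19). The gene of 231 kb on CI01000106 from 12994 to 243714 had 15 counts at high and 1 at normal temperature, which is below the minimum of 20 counts for a ratio.

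Relative to normal temperature, long-span genes as a group were placed higher at high temperature than genes of shorter span. The median log2 ratio of the 641 measured long-span genes was 0.36, or 0.53 under library totals. For the 18331 measured genes of shorter span it was -0.02, or 0.14 under library totals. The 10th percentile of the long-span genes was -0.49 and the 90th was 1.60, so the group holds genes of both directions. The ratio exceeded 1 in 443 of 641 long-span genes (69.1%) and in 48.7% of the shorter-span genes. The counting interval lay wholly above 1 in 308 long-span genes and wholly below 1 in 113, and held 1 in the other 220. For shorter-span genes 28.0% lay wholly above and 32.5% wholly below 1, against 48.0% and 17.6% of the long-span genes.

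Genes were counted as higher where the whole counting interval of the scaled ratio lay above 2, and as lower where it lay below 0.5. Of the 641 long-span genes, 56 (8.74%) were higher, where 4.89% of all 19006 measured genes were, and 7 (1.09%) were lower, where 4.39% of all were. Higher genes thus made up 88.9% of the long-span genes beyond 2-fold, against 51.2% of the shorter-span genes beyond 2-fold. With library totals the counts were 73 higher and 6 lower, and the shares of higher genes 92.4% and 64.4%. Beyond 4-fold by the same rule were 9 long-span genes that were higher (1.40%, against 1.04% of all measured genes) and 2 that were lower (0.312%, against 0.831% of all). With a minimum of 100 counts, 36 of 478 long-span genes were higher (7.53%, against 4.25% of shorter-span genes), and with a stricter confidence level 35 of 641 were (5.46%, against 2.8%).

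**Figure D2:**
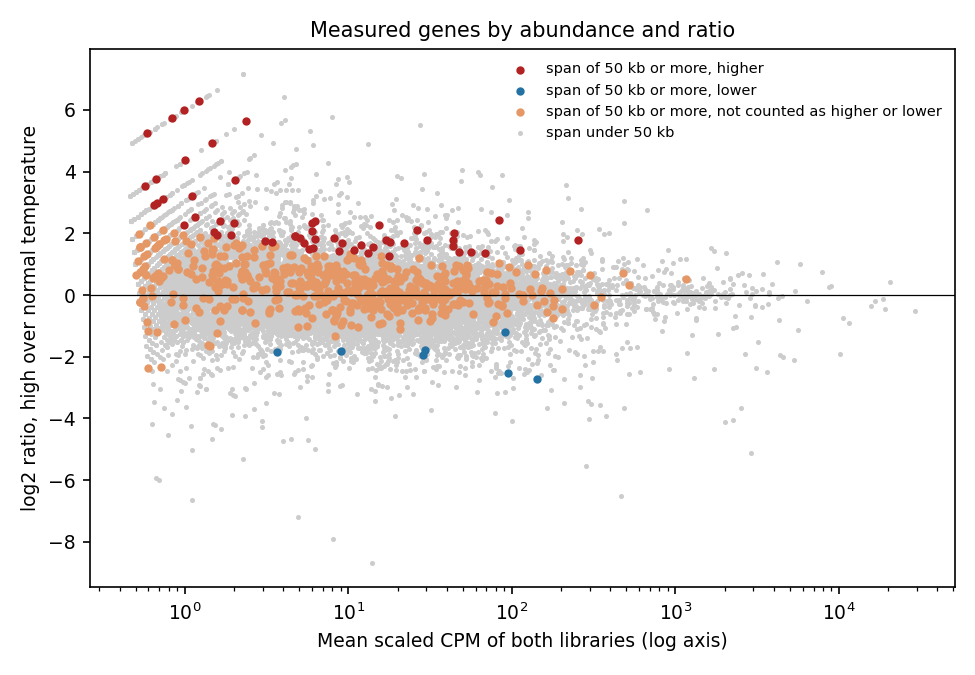
Each point is a measured gene, with its mean scaled CPM over both libraries on the horizontal log axis and its log2 ratio, high over normal temperature, on the vertical axis. The 56 higher long-span genes are spread over most of the abundance range but lean to sparse genes. From the sparsest to the most abundant of 5 equal classes of measured genes they number 20, 13, 7, 7 and 9. In the sparsest class 13.5% of long-span genes and 7.05% of shorter-span genes are higher. The 7 lower ones number 0, 1, 1, 2 and 3 in the same order. In the most abundant class 2.31% of long-span genes and 9.41% of shorter-span genes are lower.

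The 56 higher genes lay on 46 sequences, with at most 3 on any of them, and spanned 51.8 to 163 kb. Their counts at high temperature ran from 24 to 8750 with a median of 194.5, against 0 to 1812 with a median of 35 at normal temperature. Their FPKM had a median of 1.71 at high and 0.368 at normal temperature, and 19 of them exceeded 5 FPKM at high temperature. The median ratio was 3.73. By the bound of the interval nearest to no difference, CI01000029_00076210_00177393 ranked first, on CI01000029 from 76210 to 177393. It had 104 counts (0.601 FPKM) at high and 1 count (0.0073 FPKM) at normal temperature, a ratio of 73.9 (13.0 to 2947). CI01000344_02356608_02519325, on CI01000344 from 2356608 to 2519325, had 54 counts (0.179 FPKM) at high temperature and none at normal temperature. No ratio can be formed for it, and its counting interval had a lower bound of 10.05. Both genes are long as counted, at about 8262 and 14409 bases, so even an FPKM below 1 rests on 104 and 54 reads. A count of 0 at normal temperature was found in 4 measured long-span genes, with 26 or more counts at high temperature, and each of these passed the count minimum through the high temperature library alone. Some other higher genes, among them the first-ranked one, had few counts at normal temperature. They too reached the minimum only with the counts of the high temperature library. No measured long-span gene was without a count at high temperature.

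The 7 lower genes lay on 6 sequences and spanned 50.1 to 164 kb. Their counts ran from 35 to 1236 at high temperature, with a median of 293, and from 90 to 3875 at normal temperature, with a median of 719. The FPKM had a median of 3.81 at high and 13.1 at normal temperature, and the differences were 2.27-fold to 6.63-fold. CI01000359_00240563_00291074, on CI01000359 from 240563 to 291074 and 1020 bases long as counted, had 823 counts (38.5 FPKM) at high and 3875 counts (228 FPKM) at normal temperature. The high temperature library thus held 6.63-fold less (6.14 to 7.15). CI01000059_01463769_01531967, on CI01000059 from 1463769 to 1531967 and 7400 bases long, had 619 counts (4 FPKM) at high and 2558 counts (20.8 FPKM) at normal temperature, which is 5.82-fold lower (5.33 to 6.36).

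Across the whole table, the median ratio climbed with span above about 20 kb. The median log2 ratio was -0.02 below 1 kb, 0.01 at 1 to 2 kb, -0.07 at 2 to 5 kb, -0.07 at 5 to 10 kb and -0.01 at 10 to 20 kb. It was 0.08 at 20 to 30 kb and 0.14 at 30 to 50 kb. Within the long-span genes it was 0.29 at 50 to 70 kb, 0.41 at 70 to 100 kb and 0.57 at 100 kb or more. Each of these is 0.16 higher with library totals. The share of higher genes was 5.29% at 30 to 50 kb, and 7.06%, 9.57% and 12.4% in the 3 classes above it, and the share of lower genes was 2.15%, 1.47%, 0% and 1.77% in the same order. At 70 to 100 kb no gene was lower and 18 of 188 were higher. The upper classes were also the sparser ones. The median FPKM of measured genes was 4.69 at high and 3.59 at normal temperature for spans of 50 to 70 kb, and 1.73 at high and 0.850 at normal temperature for spans of 100 kb or more.

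Sparse genes had higher ratios than abundant ones both among long-span and among shorter-span genes, and long-span genes were therefore compared with shorter-span genes of like abundance. In the sparsest of 5 equal abundance classes (quintiles), up to 2.25 scaled CPM, 148 long-span genes had a median log2 ratio of 0.91 and 3647 shorter-span genes had 0.32. Median counts there were 30 at high and 10 at normal temperature in long-span genes, and 26 and 14 in shorter-span genes. Many of these genes reached the minimum of 20 counts only with the high temperature library, so the medians of this class lean on that filter. With a minimum of 100 counts over all abundances, the medians were 0.24 in 478 long-span and -0.07 in 14250 shorter-span genes. In the second quintile the median log2 ratio was 0.53 in 123 long-span genes and 0.03 in shorter-span genes, and in the third 0.24 and -0.11. In the fourth it was 0.06 in 121 long-span genes and -0.14 in shorter-span genes. In the highest quintile, above 34.1 scaled CPM, it was 0.21 in 130 long-span genes and -0.06 in shorter-span genes. The long-span median was above that of all shorter-span genes in each of the 5 quintiles, by the least in the fourth, and library totals move both medians alike. Genes of 30 to 50 kb, the nearest class, had medians of 0.55, 0.29, 0.09, 0.11 and 0.03 from the lowest quintile to the highest. In the fourth quintile their median was above that of the long-span genes, and in the others it lay between the long-span and the shorter-span median. In the highest quintile 9 long-span genes were higher and 3 lower, against 176 and 345 among 3665 shorter-span genes.

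**Figure D3:**
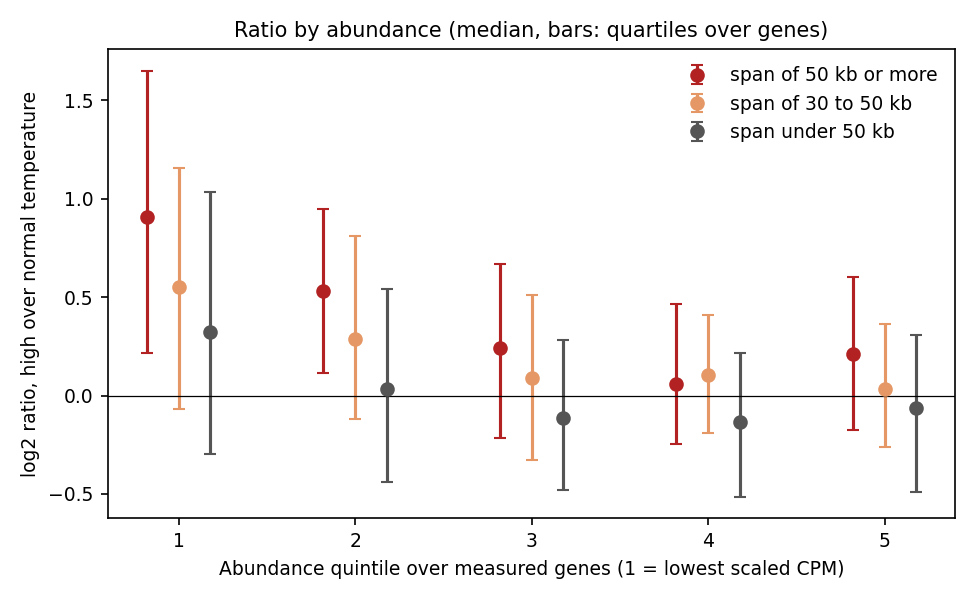
Median log2 ratio, high over normal temperature (vertical axis), with quartiles over genes as bars, in 5 abundance quintiles of all measured genes (horizontal axis). Genes of 50 kb or more lie above all genes under 50 kb in each quintile, from 0.91 against 0.32 in the lowest to 0.21 against -0.06 in the highest. The genes of 30 to 50 kb, shown apart, are also part of those under 50 kb. In the fourth quintile their median is 0.11, above the 0.06 of genes of 50 kb or more.

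Matching on counted length as well narrowed the difference without closing it. Genes with a length known to the base were sorted into cells of 5 abundance by 5 length classes, and the medians of 590 long-span genes and 18237 shorter-span genes were compared within cells. Weighted by the long-span genes per cell, the median log2 ratio was 0.35 for long-span genes and 0.13 for shorter-span genes, a difference of 0.23, against 0.34 when only abundance was matched and 0.28 when only length was matched. The long-span genes had the higher median in 18 of the 20 cells that held any, and in all 11 cells with at least 10 of them. In those 11 cells the difference ran from 0.04 to 0.39. Of the 590 genes, 386 (65.4%) lay above the median of the shorter-span genes of their cell. Set against its 10 nearest shorter-span genes in abundance and length, a long-span gene lay a median of 0.20 higher, and 366 of 590 (62.0%) lay above. Scaling moves all log2 ratios by the same amount, so it can change the difference within cells only by moving genes between abundance classes. The difference was 0.23 from TMM factors and 0.23 from library totals.

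The calls beyond 2-fold moved with the matching in both directions. Of the 590 genes, 49 (8.31%) were higher, against 5.96% of shorter-span genes in the same mix of cells, and 7 (1.19%) were lower, against 3.02%. The longest length class, of 2290 bases or more, held 431 of the 590 genes. There the median length was 3933 bases in long-span and 3102 bases in shorter-span genes, so matching by class left the long-span genes somewhat longer. The median log2 ratio in that class was 0.31 for long-span and 0.05 for shorter-span genes.

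At like abundance and length, the order of the 3 long-span classes depended on the way of matching and on the genes admitted. With lengths known to the base, the median distance from the shorter-span genes of the same cell was 0.24 at 50 to 70 kb (322 genes), 0.22 at 70 to 100 kb (172 genes) and 0.20 at 100 kb or more (96 genes). Lengths known to the base are rarer among genes of low FPKM, which include sparse genes and genes very long as counted. They were available for 590 of 641 measured long-span genes and for 18237 of 18331 shorter-span genes. With lengths known to within 5%, which admit all 641 genes, the distances were 0.24, 0.25 and 0.36. The class of 100 kb or more then held 113 genes instead of 96, so the set of genes changed too. Against the 10 nearest genes, again with the 590 genes of lengths known to the base, the distances were 0.22, 0.20 and 0.11. The sign was the same in each class and each way of matching, while the rank of the widest genes was not.

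**Figure D4:**
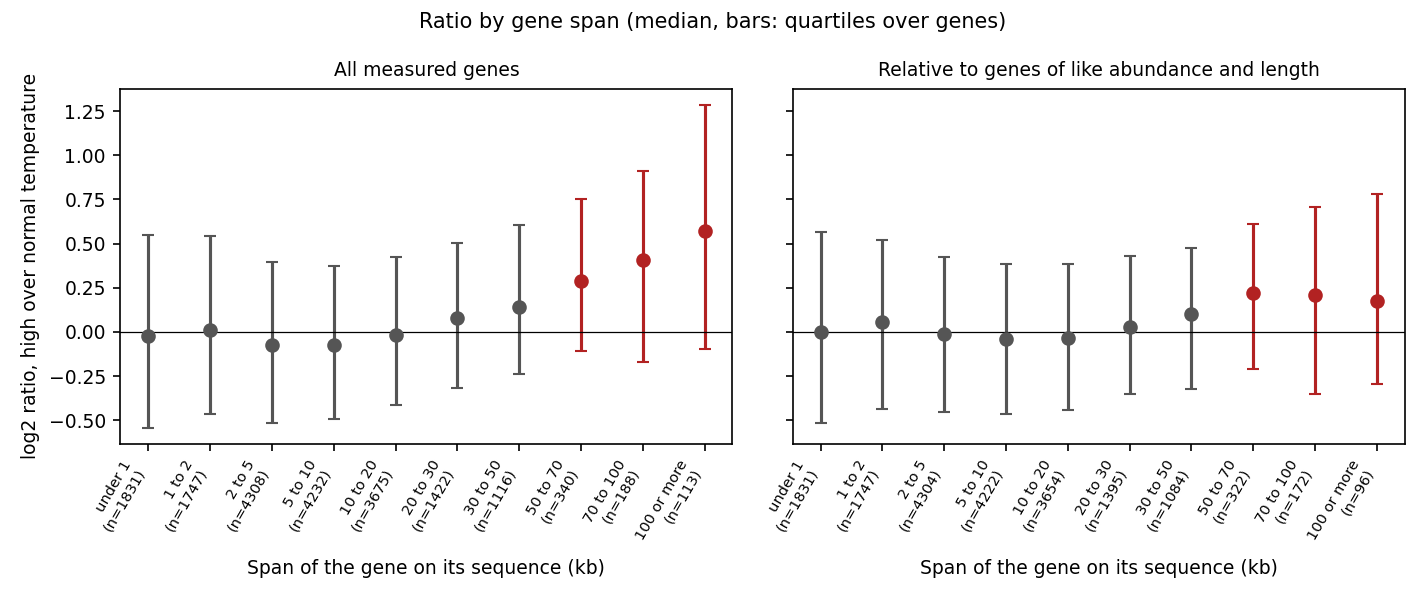
Median log2 ratio, high over normal temperature (vertical axis), with quartiles over genes as bars, by span class (horizontal axis, kb, with the number of genes); genes of 50 kb or more are red. On the left, all measured genes climb to 0.57 at 100 kb or more; on the right, each gene is taken relative to the median of all measured genes in its cell of abundance and length, and the 3 long-span classes lie level at 0.22, 0.21 and 0.17.

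Among the long-span genes themselves, counted length made little difference. With the 590 genes cut into 3 groups of equal size, the median log2 ratio was 0.36 up to 2486 bases, 0.27 at intermediate lengths and 0.29 from 4145 bases. Of 197, 196 and 197 genes in this order, 15, 16 and 18 were higher and 2, 1 and 4 were lower. Over the 590 genes together 8.31% were higher and 1.19% lower, against 4.89% and 4.39% of all measured genes. Abundance made more difference, with a Spearman's rho of -0.31 between scaled CPM and the log2 ratio over 641 genes, against 0.13 between span and log2 ratio. Both are values across genes of the same 2 libraries, which are not independent replicates, and counts enter both axes of the first.

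The shorter-span genes beside long-span genes had ratios like those of shorter-span genes in general. These neighbours are by rule a part of the shorter-span group and were not matched on abundance or length. Whether ratios are shared by region was therefore not tested. The nearest gene of shorter span on either side was found for most long-span genes, at a median gap of 18.6 kb, and 976 such neighbours were measured. Their median log2 ratio was -0.02, as in all shorter-span genes, and 45 (4.61%) were higher and 35 (3.59%) lower. In 753 measured pairs, the long-span gene had the higher ratio in 474 (63.0%). Spearman's rho between the log2 ratios of the paired genes was 0.11, a description over pairs that share both libraries. In 16 measured pairs of adjacent long-span genes, both ratios lay above 1 in 6 and both below 1 in 3.

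**Figure D5:**
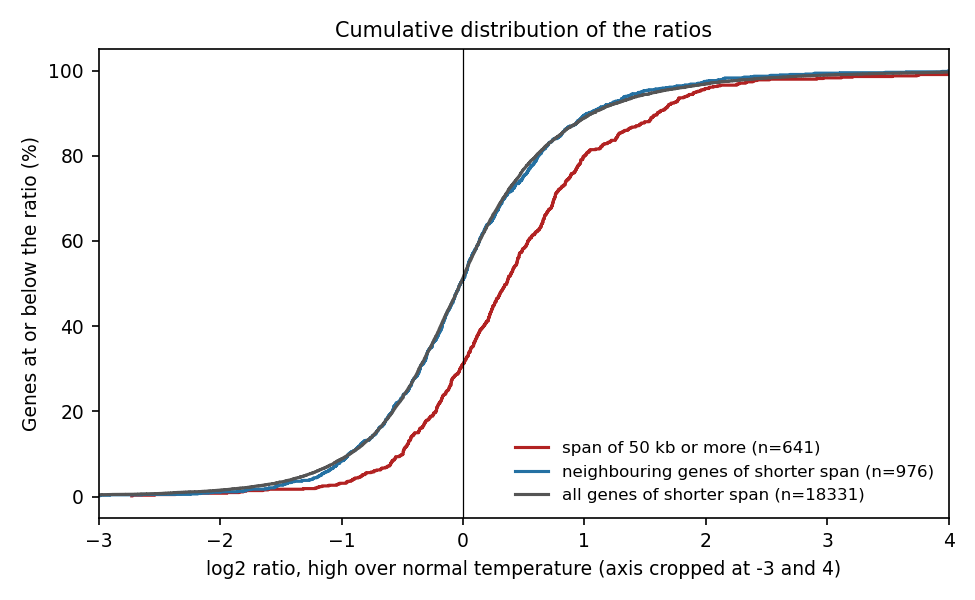
Cumulative share of genes (vertical axis, percent) by log2 ratio, high over normal temperature (horizontal axis, cropped), for long-span genes, their measured neighbours of shorter span and all measured genes of shorter span. The curve of the 976 neighbours lies on that of the shorter-span genes, and the curve of the 641 long-span genes lies to the right of both over most of the range.

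The difference between long-span and shorter-span genes was spread over the assembly. On 45 sequences with at least 5 measured long-span genes and 20 measured shorter-span genes, the median log2 ratio of the long-span genes was the higher on 43. The difference between the medians, long-span minus shorter-span, had a median of 0.47 over these sequences. It was largest on CI01000310, where 7 long-span genes had a median of 1.63 and 104 shorter-span genes 0.06. It was negative on CI01000053, with medians of -0.023 in 6 long-span and -0.0022 in 158 shorter-span genes, and on CI01000051, with -0.44 in 9 long-span and -0.10 in 144 shorter-span genes. These differences are not matched on abundance or length. Temperature, the fish sampled, RNA quality, library preparation and sequencing cannot be told apart as sources of the difference between the libraries. In whole spleen, fewer cells of a type and less RNA per cell cannot be told apart either.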

How the data were processed

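Whole-number read counts per gene were deposited, not normalized, with FPKM made by the authors. Per the submitters' processing notes, CASAVA 1.7 and HISAT were used. Counting tool, genome build, annotation and strand handling are details not given in the sources used here. A length counted as known to the base where a single whole number gave both FPKM values from the counts and library totals. For all 4802 gene IDs with at least 1000 counts and such a length, FPKM equalled the recomputed value within 0.0001. That outcome follows from how these lengths were kept, so it is no separate check. FPKM served to recover lengths and to compare levels per length. Depth was 20936717 counts at high and 16658918 at normal temperature.

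Scaling used TMM factors of edgeR 4.0.16 (R 4.3.3); DESeq2 1.42.0 size factors were an alternative. With 1 library per treatment, edgeR's test was not fitted. Ratios carry exact Clopper-Pearson 95% intervals for genes with at least 20 counts, and log2 ratios a prior count of 0.5. Reads are not independent molecules, so intervals and the limit of 3 counts cover counting error only. Matching used quintiles of abundance and length, in cells with at least 20 shorter-span genes. Expected detection at equal totals was computed exactly. The scripts were tested on simulated data. Python 3.11.15, numpy 2.4.6, scipy 1.17.1 and pandas 2.3.3 were used. Genes given by ID are the 2 higher and 2 lower with the most extreme near bounds; genes given by position are the 5 widest, the 5 highest in FPKM and the 3 on either side of 50 kb. The sequences with extreme differences were picked after their values were seen. The genes, settings and comparisons were chosen with earlier results of these data known. No sequence is shown, since no genome was used here.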

Additional observations from a re-analysis of the deposited data

How the results depend on the processing

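Of 55 recomputed values, 33 stayed within 1.5 times the reported count or within the 95% interval of the reported value. For shares of counts that interval covers counting error. For the median log2 ratio, the matched difference and the median FPKM it is an interval of the median across genes, which are not replicates. No median log2 ratio or matched difference changed sign, and the other values are counts, shares and levels that have no sign to change. The number of higher long-span genes, 56, was 36 with a minimum of 100 counts. It was 35 with a stricter confidence level (5.46%, against 2.8% of shorter-span genes). Beyond 4-fold, 9 were higher and 2 lower (1.4% and 0.312%, against 1.03% and 0.851% of shorter-span genes). Spans of at least 30 kb gave 115 higher and 31 lower of 1757 genes (6.55% and 1.76%, against 4.69% and 4.65% of shorter-span genes), and spans of at least 100 kb gave 14 and 2 of 113 (12.4% and 1.77%, against 4.82% and 4.4%). The median log2 ratio, 0.36, was 0.53 with library totals and 0.50 with upper quartile scaling. It was 0.24 with a minimum of 100 counts, 0.44 with no minimum, 0.22 from 30 kb and 0.57 from 100 kb. FPKM is scaled by library totals, so its like value is 0.53. On FPKM the median was 0.47 with a pseudocount of 0.1 and 0.29 with a pseudocount of 1. With a pseudocount of 1 and a mean FPKM of at least 1 it was 0.31. With the minimum of 100 counts, 7.53% of long-span genes were higher, against 4.25% of shorter-span genes. The difference at like abundance and length, 0.23, ran from 0.17 from 30 kb to 0.28 with length alone, except for 0.34 with abundance alone. Matching on the high or the normal temperature library alone and lengths within 5% were chosen after seeing the data. Without the 10 most abundant genes of the table, long-span genes took 2.31% of counts at high and 1.82% at normal temperature, and without their own most abundant gene 1.82% and 1.42%. Their median FPKM over both libraries was 3.67 with lengths known to the base, 2.96 at normal temperature alone and 3.17 whatever the precision of the length. Genes with few counts limit the ratios: of the 881 genes, 222 had 1 to 19 counts over both libraries. Leaving out a library is not an option with 1 per treatment. No paired analysis was possible either, with 1 library per treatment.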
